A study of Mus musculus with 12 samples.

Results

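Car1, Car2, Rhd, Klf1, Gata1, Tmem14c, Mt1, Mt2 and Gfi1b were listed together as erythroid programme genes. That programme is switched on as a blood progenitor commits to the red cell lineage, and whether each gene belongs to it was not tested. The RNA levels of the 9 genes are described here in mouse bone marrow stem and progenitor cells of 4 genotypes. The 9 genes were listed by name and not by a measured value, but the choice was made with earlier results of these data known. Their counts beside those of all tested genes are therefore a description. All 9 were found in the deposited table of 37187 genes, and 9 of 9 passed the filter on low values (a normalised signal of at least 10 in at least 3 libraries) that left 14045 genes for testing. The groups were the combined Tet2 and Traf6 knockout (dKO), the Tet2 knockout (Tet2 KO), the Traf6 knockout (Traf6 KO) and the wild type (WT), each with 3 libraries. All were bone marrow cells sorted as LSK (negative for lineage markers, with Sca-1 and c-Kit on the surface), a gate that holds stem cells and multipotent progenitors. The sources used here do not give how the alleles were made, the cells in which they were deleted, or the age, strain and sex of the mice. Nothing in the labels says that the libraries of a group were separate animals, so the p-values measure the spread between libraries, which may be technical.

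Red cell commitment rests on a small set of transcription factors. GATA1 binds the GATA motif in most erythroid promoters and enhancers, KLF1 acts with it on globin, membrane and haem genes, and GFI1B represses genes of other fates beside GATA1. Car1 and Car2 encode cytosolic carbonic anhydrases, which interconvert carbon dioxide and bicarbonate. Rhd encodes the Rh blood group protein of the red cell membrane, and TMEM14C moves a haem precursor into mitochondria. Mt1 and Mt2 encode metallothioneins, small cysteine-rich proteins that bind zinc and copper and are induced through the metal-responsive factor MTF1.

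Each library held between 22169673 and 53921402 reads on genes, and the deposited values are those reads divided by a size factor, here called normalised signal. Names of groups are those of the labels, with 2 reservations. The library labelled Traf6 KO replicate 1 had a Traf6 signal of 2474, against 854 and 568 in the other Traf6 KO libraries and 1935 to 3006 in WT. The library labelled Tet2 KO replicate 1 had a Tet2 signal of 668, against 403 and 486 in the other Tet2 KO libraries and 525 to 783 in WT. Tet2 was at 722, 339 and 427 in Traf6 KO replicates 1, 2 and 3, so its level does not separate Tet2 KO from Traf6 KO. The dKO libraries had 197 to 326 for Tet2 and 799 to 1313 for Traf6. The deleted exons are not given, so a gene-level value need not fall to 0. Both genes have transcripts longer than 4000 nt, a class with a median log2 change of -1.23 in dKO against WT and 54.4% of genes lower. Their lower signal in dKO therefore cannot be told apart from that trend and does not check the labels. Xist, the X-inactivation RNA of female cells, was at most 1.30 in dKO libraries, 990.3 to 3826 in libraries of the single knockouts and at most 17.0 in WT libraries, so sex and genotype cannot be told apart except between dKO and WT; Gata1 is on the X chromosome. The library labelled Traf6 KO replicate 1 also had a signal of 1524 for the Y-linked gene Eif2s3y, against at most 2.32 in the other Traf6 KO libraries. Tet2 KO replicate 3 had 55.4 for Eif2s3y, against 2.11 and 0.968 in Tet2 KO replicates 1 and 2. Between dKO and WT, the change of a gene followed the length of its transcript across the whole table, and the values with that trend removed are therefore given beside the changes of dKO over WT. In bulk RNA, fewer cells of a type and less RNA per cell cannot be told apart.

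In dKO LSK cells, 6 of the 9 genes rose against WT (Mt2, Mt1, Car1, Rhd, Tmem14c and Klf1), and none fell. The metallothioneins and Car1 moved most, with log2 changes of 4.53 for Mt2, 4.19 for Mt1 and 3.77 for Car1, and those 3 passed the test under all 24 alternative settings tried. Car2, Gata1 and Gfi1b did not pass. Of all genes tested, 21.9% rose in this comparison, and the median log2 change was 1.94 over the 9 genes, against -0.09 over all tested genes. For 7 of the 9 genes, all 3 dKO libraries lay above all 3 WT libraries; 27.9% of all tested genes did the same. The test was limma on log2(normalised signal + 1) over all 12 libraries, with Benjamini-Hochberg adjustment over the 14045 genes and a threshold of 0.05.

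**Figure D1:**
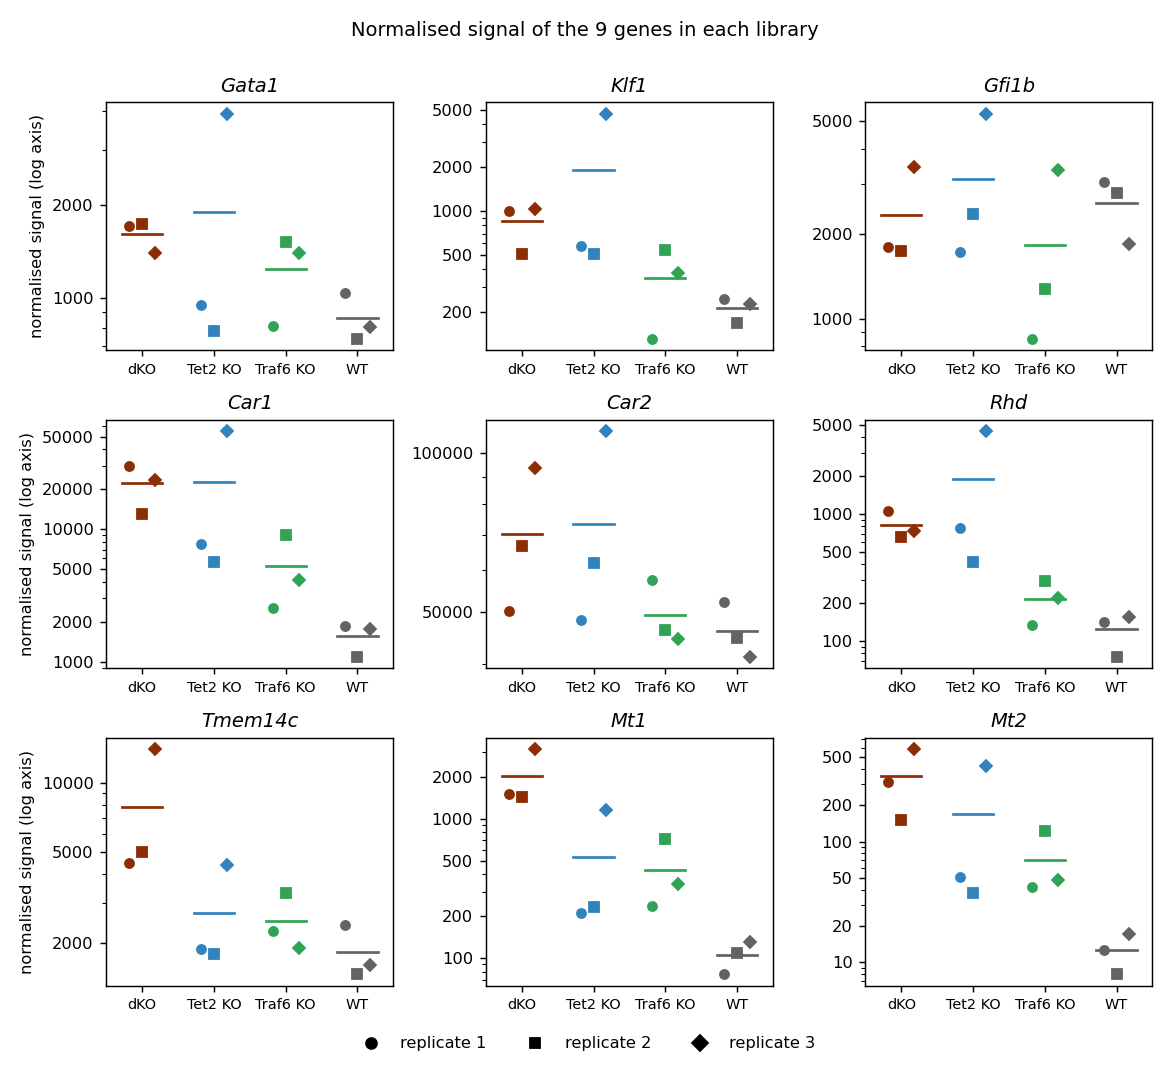
Normalised signal (log axis) of the 9 genes in each library, by genotype; circles, squares and diamonds are replicates 1, 2 and 3, and each line is the group mean. The dKO libraries of Car1, Rhd, Klf1, Gata1, Tmem14c, Mt1 and Mt2 all lie above the WT libraries, and Tet2 KO replicate 3 (diamond) is the highest of its group in all 9 panels.

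Levels between genes can be compared only per length, as mean signal per kilobase of the longest transcript. In dKO cells the order was Car2 at 39276, Car1 at 18556, Tmem14c at 8602, Mt1 at 1878, Gfi1b at 1278, Gata1 at 848, Mt2 at 682, Klf1 at 555 and Rhd at 537 per kilobase. In WT cells it was Car2 at 25777, Tmem14c at 1993, Gfi1b at 1405, Car1 at 1314, Gata1 at 454, Klf1 at 141, Mt1 at 97.1, Rhd at 81.8 and Mt2 at 24.8 per kilobase. Car2 thus led in both genotypes, while Mt2 held the lowest place in WT and a higher one in dKO.

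Of the transcription factors, Klf1 rose in dKO and Gata1 and Gfi1b did not pass. Klf1 (chr8:84901928-84905291 of GRCm38, plus strand) is the erythroid Krüppel-like factor. Its normalised signal was 1007, 509 and 1033 in dKO replicates 1, 2 and 3, 575, 505 and 4699 in Tet2 KO, 131, 536 and 374 in Traf6 KO, and 248, 170.2 and 229 in WT. Every dKO and every Tet2 KO library was above every WT library, and Traf6 KO overlapped WT. The log2 change of dKO over WT was 1.92 ± 0.73 (SE, n = 3 each), with an adjusted p of 0.043 in limma. That call was the least firm of the 6: it ended when any 1 of dKO replicate 1, dKO replicate 3, Traf6 KO replicate 3 or any WT replicate was left out (log2 1.74 to 2.03, adjusted p 0.0529 to 0.118), in edgeR (adjusted p 0.0527), and with the length trend removed (1.19, adjusted p 0.207); over all 24 alternatives the adjusted p ran between 0.0083 and 0.234, and 11 passed.

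Gata1 (chrX:7959260-7978071, minus strand) encodes the factor that starts and maintains red cell, megakaryocyte and mast cell fates. In dKO libraries its normalised signal was 1701, 1737 and 1399, against 952, 781 and 3926 in Tet2 KO, 813, 1513 and 1395 in Traf6 KO, and 1042, 738 and 809.8 in WT. The 3 dKO libraries lay above the 3 WT libraries without overlap, and both single knockouts overlapped WT. On the log2 scale dKO exceeded WT by 0.91 ± 0.48 (SE, n = 3 each) and did not pass in limma (adjusted p = 0.133). It passed when only dKO and WT libraries were fitted (adjusted p = 0.0357) and without Tet2 KO replicate 3, whose spread enters the shared error (adjusted p = 0.0231); over all 24 alternatives the adjusted p ran between 0.0231 and 0.648. With the length trend removed its log2 change was 0.34 (adjusted p = 0.624).

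Gfi1b (chr2:28609450-28621982, minus strand) was the only one of the 9 with a lower mean in dKO than in WT. Its normalised signal was 1801, 1735 and 3448 in dKO, 1718, 2347 and 5331 in Tet2 KO, 847, 1270.3 and 3374 in Traf6 KO, and 3052.5, 2796 and 1833 in WT. All 4 genotypes overlapped, and the log2 change of dKO over WT was -0.18 ± 0.50 (SE, n = 3 each; limma, adjusted p = 0.789), or -0.74 with the length trend removed (adjusted p = 0.215). Gfi1b passed in no comparison under any alternative.

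Of the carbonic anhydrases, Car1 rose in dKO and Car2, its neighbour on chromosome 3, did not pass. Car1 (chr3:14766216-14808368, minus strand) marks early erythroid progenitors. Its normalised signal was 29981, 12926 and 23561 in dKO, 7750.3, 5662 and 54843 in Tet2 KO, 2538, 9009 and 4120 in Traf6 KO, and 1868, 1089 and 1751 in WT. Every knockout library of every genotype was above every WT library. The means were 22156 ± 8614 for dKO, 22752 ± 27811 for Tet2 KO, 5222 ± 3374 for Traf6 KO and 1569 ± 420.4 for WT (SD, n = 3 each), so dKO and Tet2 KO cannot be ordered beyond their spread and the mean of Traf6 KO stood between theirs and that of WT. The log2 change of dKO over WT was 3.77 ± 0.69 (SE; limma, adjusted p = 0.00139), and it was 2.75 with the length trend removed (adjusted p = 0.0101); the adjusted p was at most 0.0154 under the 24 alternatives. A processed pseudogene on the same strand, Gm16399, lies inside the Car1 gene and is not in the table.

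Car2 (chr3:14886273-14900770, plus strand) was the most abundant of the 9 in every genotype. The dKO libraries had a normalised signal of 50253, 66801 and 93622, against 48394, 61872 and 109863 in Tet2 KO, 57420, 46328 and 44522 in Traf6 KO, and 52304, 44733 and 41233 in WT. The genotypes overlapped, with dKO replicates 2 and 3 and Tet2 KO replicates 2 and 3 above the highest WT library. For dKO over WT the log2 change was 0.57 ± 0.29 (SE, n = 3 each; limma, adjusted p = 0.122). It passed without dKO replicate 1 (0.79, adjusted p = 0.0383), turned to -0.17 with the length trend removed (adjusted p = 0.61), and its adjusted p ran between 0.0383 and 0.701 over the alternatives.

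Rhd (chr4:134864536-134896172, plus strand) rose in dKO. Replicates 1, 2 and 3 of dKO had 1046, 663 and 729, against 769, 420.1 and 4469 in Tet2 KO, 134, 295 and 218 in Traf6 KO, and 140.5, 75.4 and 156 in WT. All dKO and all Tet2 KO libraries were above all WT libraries, and the library labelled Traf6 KO replicate 1 lay inside the WT range. Mean signal was 813 ± 205 for dKO, 1886 ± 2244 for Tet2 KO, 216 ± 80.5 for Traf6 KO and 124 ± 42.7 for WT (SD, n = 3 each); dKO and Tet2 KO did not differ beyond their spread, nor did Traf6 KO and WT. For dKO over WT the log2 change was 2.74 ± 0.67 (SE; limma, adjusted p = 0.00576). With the length trend removed it was 1.85 and no longer passed (adjusted p = 0.0538); 22 of the 24 alternatives passed, with an adjusted p of at most 0.0647.

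The upstream windows of Klf1 and Rhd are shown because, among the 9, these genes were each other's nearest in pattern across the 12 libraries and each window holds a GATA match. The windows are the bases before the gene start on GRCm38.p6 from RefSeq, plus strand, chr8:84901732-84901927 for Klf1 and chr4:134864286-134864535 for Rhd. Capitals mark the GATA match, which on Klf1 is on the opposite strand.
Klf1: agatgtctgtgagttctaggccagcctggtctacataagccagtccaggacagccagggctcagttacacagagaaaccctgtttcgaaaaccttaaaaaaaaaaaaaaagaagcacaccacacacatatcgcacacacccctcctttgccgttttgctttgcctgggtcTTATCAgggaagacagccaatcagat
Rhd: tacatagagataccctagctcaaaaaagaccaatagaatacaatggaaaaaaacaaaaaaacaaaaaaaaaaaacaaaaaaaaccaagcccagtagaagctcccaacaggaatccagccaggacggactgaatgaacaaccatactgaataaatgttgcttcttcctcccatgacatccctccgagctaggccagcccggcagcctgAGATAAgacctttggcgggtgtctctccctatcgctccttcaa
Motifs were searched by exact letters on both strands. The GATA motif was the letters GATA with A or T before them and A or G after them, the KLF motif was CCNCNCCC, and the metal response element was TGCACNC, in which A may also be G. No match of 1 motif overlapped a match of another in the windows of these genes. Of 32851 windows of 250 bases upstream of RefSeq gene starts, 26.5% hold at least 1 GATA match, 45.9% a KLF match and 21.4% a metal response element. Of the 9 genes, 7 had a window; Car1 and Car2 are named only. Gata1 had 3 KLF matches, Tmem14c 1 KLF match, and Gfi1b 1 GATA and 2 KLF matches. A match is a description of the letters and not a bound site.

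Tmem14c (chr13:41016292-41022586, plus strand), the mitochondrial transporter needed for the late steps of haem synthesis, rose in dKO and did not pass in the single knockouts. Its normalised signal was 4470 and 5005 in dKO replicates 1 and 2 and 14112 in replicate 3, 1880, 1792 and 4395 in Tet2 KO, 2257, 3306 and 1896 in Traf6 KO, and 2404, 1458 and 1604 in WT. The dKO libraries were above every library of the other 3 genotypes. The log2 change of dKO over WT was 1.94 ± 0.45 (SE, n = 3 each; limma, adjusted p = 0.00429). With the length trend removed it was 0.69 and did not pass (adjusted p = 0.0681); 21 of 24 alternatives passed, with an adjusted p of at most 0.110. At 914 nt, its transcript is the second shortest of the 9, and dKO replicate 3 was the library with the highest normalised total (39973892, against 25557760 to 28916082 in the other 11).

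In dKO, Mt2 and Mt1 had the largest log2 changes over WT of the 9 genes. Mt1 (chr8:94179082-94180327) and Mt2 (chr8:94172664-94173568) lie beside each other on the plus strand. The normalised signal of Mt1 was 1510 and 1428 in dKO replicates 1 and 2 and 3176 in replicate 3, 209.9, 232 and 1147 in Tet2 KO, 236, 716 and 343 in Traf6 KO, and 76.6, 109 and 131 in WT. Every knockout library was above every WT library, and every dKO library was above every library of the single knockouts. Means were 2038 ± 986 for dKO, 529.8 ± 535 for Tet2 KO, 432 ± 252 for Traf6 KO and 105 ± 27.2 for WT (SD, n = 3 each); the single knockouts overlapped each other. The log2 change of dKO over WT was 4.19 ± 0.61 (SE; limma, adjusted p = 0.000427) and 3.02 with the length trend removed (adjusted p = 0.00194); the adjusted p was at most 0.0042 under the 24 alternatives.

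Mt2 was the least abundant of the 9 in WT. Signals of 309, 151 and 586 in dKO stood against 50.6, 37.8 and 423 in Tet2 KO, 41.8, 123 and 47.9 in Traf6 KO, and 12.8, 7.997 and 17.3 in WT. Again each knockout library exceeded each WT library; dKO replicate 2 was below Tet2 KO replicate 3, so those groups overlapped. For dKO over WT the log2 change was 4.53 ± 0.83 (SE, n = 3 each; limma, adjusted p = 0.00139) and 3.02 with the length trend removed (adjusted p = 0.0106), with an adjusted p of at most 0.0184 under the 24 alternatives. Mt2 overlaps Gm45774 on the opposite strand, which is not in the table, and the library kit does not mark strand.

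The upstream windows of Mt1 and Mt2 are shown because both genes rose in dKO and both windows hold matches to the metal response element, the motif that MTF1 binds. They come from RefSeq on GRCm38.p6, plus strand, chr8:94178839-94179081 for Mt1 and chr8:94172368-94172617 for Mt2. Capitals mark each match to the metal response element on either strand.
Mt1: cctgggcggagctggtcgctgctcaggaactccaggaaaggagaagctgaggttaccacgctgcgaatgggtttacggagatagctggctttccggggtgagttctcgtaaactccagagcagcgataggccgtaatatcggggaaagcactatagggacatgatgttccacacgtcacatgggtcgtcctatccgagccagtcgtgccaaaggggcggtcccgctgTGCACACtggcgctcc
Mt2: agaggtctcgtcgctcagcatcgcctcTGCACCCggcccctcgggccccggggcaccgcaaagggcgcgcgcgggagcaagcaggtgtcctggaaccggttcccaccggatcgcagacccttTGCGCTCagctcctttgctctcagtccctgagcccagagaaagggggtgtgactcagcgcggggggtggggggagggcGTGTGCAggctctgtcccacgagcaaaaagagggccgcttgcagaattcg
Mt1 had 1 match and Mt2 had 3 matches; 1.26% of the 32851 windows hold 3 or more. Mt1 also had 1 GATA match and Mt2 also had 3 KLF matches, left in lower case here. Neither window held a match to the TATA box letters TATAAA. The search stopped at the RefSeq start, and the Mt2 window ended at 94172617, before the gene position of 94172664 used here. Bases past the window ends were not searched, so these are not counts for whole promoters.

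Loss of Tet2 alone was compared with WT in the same fit. All 9 log2 changes were positive, with a median of 1.89 against 0.02 over all tested genes. None of the 9 passed in limma, where 0.107% of all tested genes rose; 5 of the 9 (Car1, Rhd, Klf1, Mt1 and Mt2) had an unadjusted p under 0.05. edgeR on the recovered reads called 0 of the 9 and DESeq2 called those 5. Shares of all tested genes with an unadjusted p under 0.05, or called by DESeq2, are not given here, so both counts of 5 are a description only. The log2 changes of those 5 over WT were 3.25 ± 0.67 for Rhd, 3.13 ± 0.69 for Car1, 2.85 ± 0.83 for Mt2, 2.38 ± 0.73 for Klf1 and 1.89 ± 0.61 for Mt1 (SE, n = 3 each), with adjusted p-values between 0.0592 and 0.27 in limma. For the same 5 genes all Tet2 KO libraries were above all WT libraries, which 8.07% of tested genes also showed. Rhd passed without Tet2 KO replicate 2 (3.96, adjusted p = 0.0252), and its adjusted p reached 0.334 among the 24 alternatives. Without Tet2 KO replicate 3 the log2 changes were lower for every one of the 9 and none passed in limma: 2.26 for Rhd, 2.12 for Car1, 1.77 for Mt2, 1.34 for Klf1, 1.09 for Mt1, 0.25 for Car2, 0.046 for Tmem14c, 0.015 for Gata1 and -0.32 for Gfi1b. Gata1 had a log2 change of 0.74, Car2 of 0.59, Tmem14c of 0.47 and Gfi1b of 0.15.

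Loss of Traf6 alone was compared with WT likewise. Of the 9 log2 changes over WT 8 were positive, with a median of 0.49 against -0.03 over all tested genes, and none passed in limma; 0.0783% of all tested genes rose. Mt2 (2.28 ± 0.83), Mt1 (1.90 ± 0.61) and Car1 (1.57 ± 0.69; SE, n = 3 each) had an unadjusted p under 0.05, with adjusted p-values of 0.501, 0.39 and 0.617 in that order. These 3 were also the genes for which every Traf6 KO library was above every WT library (9.68% of tested genes). The share of all tested genes with an unadjusted p under 0.05 is not given here. edgeR and DESeq2 called 0 of the 9. Rhd had 0.79, Gata1 0.49, Klf1 0.48, Tmem14c 0.44, Car2 0.10 and Gfi1b -0.70 on the log2 scale. The comparisons with WT share the same 3 WT libraries, and the WT means of Mt1 and Mt2 enter all 3 of them.

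Between dKO and Tet2 KO, Xist differed as well as the loss of Traf6, so sex and genotype cannot be told apart there. Set against Tet2 KO, 2 of the 9 genes rose in dKO, and 15.5% of all tested genes did. These were Mt1 (log2 change 2.31 ± 0.61; limma, adjusted p = 0.0151) and Tmem14c (1.47 ± 0.45; SE, n = 3 each; limma, adjusted p = 0.0244). They were also the 2 genes whose dKO libraries were all above the Tet2 KO libraries (22% of tested genes). Without Tet2 KO replicate 1 or 2, neither passed (Mt1 1.88 and 1.95, Tmem14c 1.28 and 1.24), and Tmem14c did not pass without dKO replicate 3 (0.95); the adjusted p ran between 0.0056 and 0.167 for Mt1 and between 0.0044 and 0.523 for Tmem14c over the 24 alternatives. Without Tet2 KO replicate 3, 4 of the 9 rose, now with Mt2 (2.76, adjusted p = 0.0238) and Car1 (1.66, adjusted p = 0.0328). With the length trend removed none of the 9 passed in limma (Mt1 1.25, Tmem14c 0.33), where 9.2% of tested genes rose. Rhd (-0.50), Klf1 (-0.46), Gfi1b (-0.33) and Car2 (-0.02) had log2 changes under 0.

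Between dKO and Traf6 KO, Xist differed as well as the loss of Tet2, so sex and genotype cannot be told apart there either. Set against Traf6 KO, 5 of the 9 genes rose in dKO, and 17.3% of all tested genes did. They were Mt1 (2.29 ± 0.61, adjusted p = 0.0151), Mt2 (2.25 ± 0.83, adjusted p = 0.048), Car1 (2.20 ± 0.69, adjusted p = 0.0281), Rhd (1.95 ± 0.67, adjusted p = 0.0364) and Tmem14c (1.49 ± 0.45, adjusted p = 0.0231; log2 change ± SE, n = 3 each, limma). The same 5 were the genes whose dKO libraries were all above the Traf6 KO libraries, against 23.2% of tested genes. None of the 5 passed without dKO replicate 3, without the library labelled Traf6 KO replicate 1 or without Traf6 KO replicate 3, and 2 passed without dKO replicate 1. In the cases where a call ended on leaving out 1 library, the log2 change was 1.92 to 2.20 for Mt1, 1.77 to 2.25 for Mt2, 1.78 to 2.13 for Car1, 1.65 to 2.09 for Rhd and 0.97 to 1.44 for Tmem14c. Without Tet2 KO replicate 3, 6 of the 9 rose, now with Klf1 (adjusted p = 0.0393). With the length trend removed none passed in limma, and the largest log2 changes were 1.34 for Car1 and 1.26 for Mt1; 8.72% of tested genes rose in that setting.

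Whether the combined loss differed from the sum of the single losses was tested as an interaction. The single knockouts differed from dKO and WT in Xist, so sex enters the interaction and cannot be told apart from genotype. None of the 9 passed in limma, none had an unadjusted p under 0.05, and edgeR and DESeq2 called 0; 0.221% of all tested genes passed in either direction. The estimates ran between -1.29 ± 0.95 for Rhd and 1.03 ± 0.63 for Tmem14c (log2, SE), with adjusted p-values between 0.334 and 0.877. The standard errors of 0.41 to 1.18 leave room for interactions of either sign, and a p that misses the threshold does not show that the losses add.

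**Figure D2:**
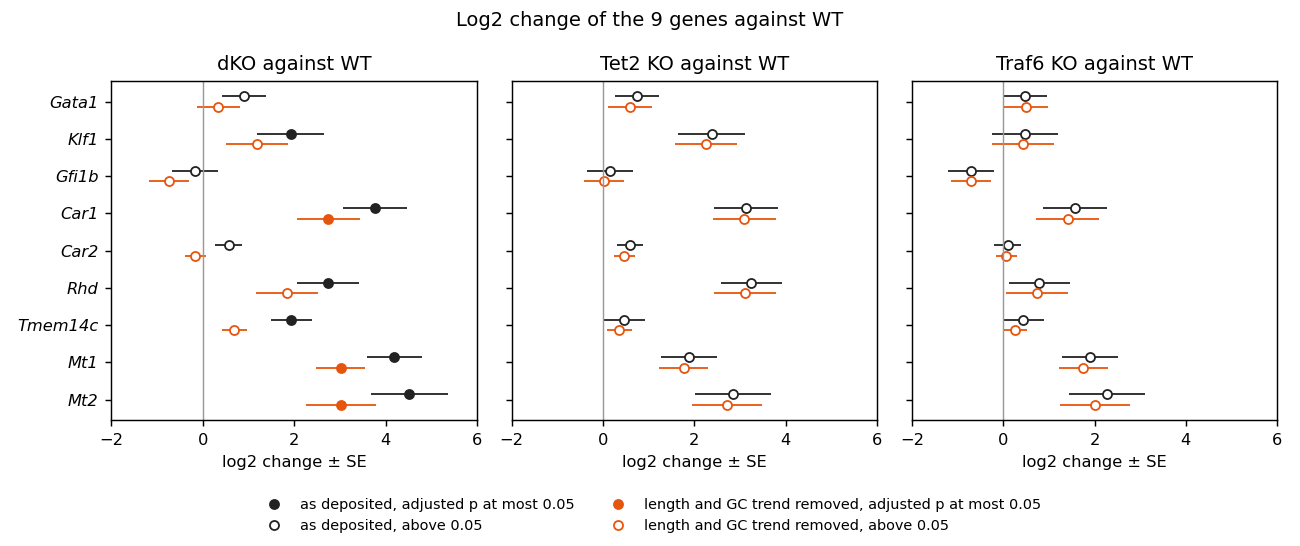
Log2 change ± SE of each of the 9 genes in dKO, Tet2 KO and Traf6 KO, each over WT; black as deposited, orange with the trend over transcript length and GC content removed, filled where the adjusted p is at most 0.05. In dKO 6 genes are filled in black and 3 (Car1, Mt1 and Mt2) in orange, and no gene is filled in the single knockouts.

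In the Tet2 KO group the 9 genes varied together. Tet2 KO replicate 3 was the highest of its group for 9 of the 9 genes, whereas it was the highest for 32.8% of all tested genes. Its signal over the mean of replicates 1 and 2 was 9.57-fold for Mt2, 8.70-fold for Klf1, 8.18-fold for Car1, 7.52-fold for Rhd, 5.19-fold for Mt1, 4.53-fold for Gata1, 2.62-fold for Gfi1b, 2.39-fold for Tmem14c and 1.99-fold for Car2. On the log2 scale these differences ran between 1.01 and 3.24, while the median over all tested genes was 0.02. The summed signal of 7 late erythroid genes was also highest in that library, at 6855, against 1329 and 678 in Tet2 KO replicates 1 and 2. The part of late erythroid RNA in the levels of the 9 genes was not tested; the values without this library stand with each comparison above.

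In the other groups no library led for every gene. The dKO replicate 3 was highest for 6 of the 9 (Car2, Klf1, Tmem14c, Mt1, Mt2 and Gfi1b; 45.0% of all tested genes), and dKO replicate 1 was highest for Car1 and Rhd. In Traf6 KO, replicate 2 was highest for 7 of the 9 (33.2% of tested genes), and the library labelled Traf6 KO replicate 1, whose Traf6 signal was in the WT range, was lowest for 7. Within Tet2 KO the highest library exceeded the lowest by 2.27-fold for Car2 up to 11.2-fold for Mt2.

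**Figure D3:**
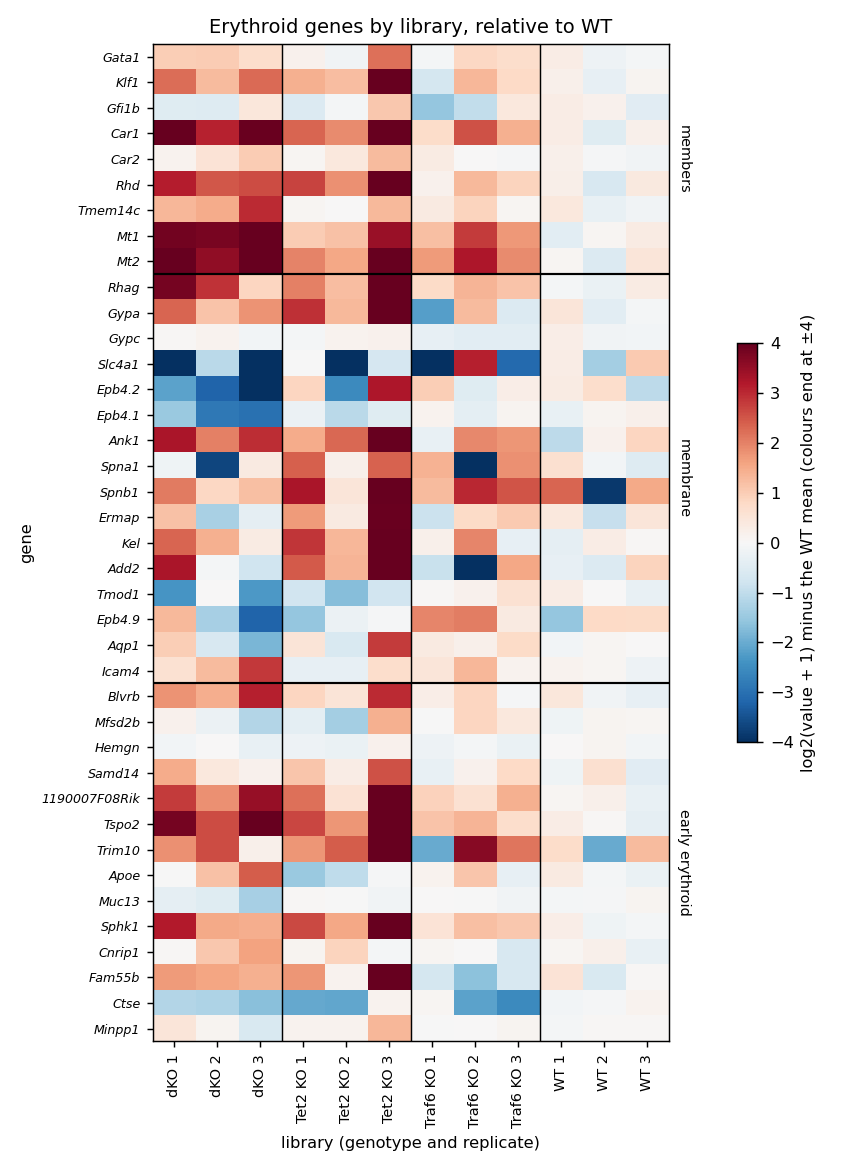
Log2(normalised signal + 1) minus the WT mean in each of the 12 libraries, for the 9 genes and for the membrane and early erythroid lists; colours end at 4 above or below the WT mean. Tet2 KO replicate 3 stands above replicates 1 and 2 for the 9 genes, and Mt1, Mt2 and Car1 are above the WT mean in every knockout library.

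The 9 genes are all short. Their longest annotated transcripts measure 511 nt for Mt2, 914 for Tmem14c, 1085 for Mt1, 1194 for Car1, 1514 for Rhd, 1530 for Klf1, 1788 for Car2, 1822 for Gfi1b and 1902 for Gata1. Across the table, the median log2 change of dKO over WT was 1.55 in 960 genes of at most 1000 nt, 1.05 in 2378 genes up to 2000 nt, -0.03 in 5531 genes up to 4000 nt and -1.23 in 4807 longer genes. Of the genes between 1000 and 2000 nt, the class that holds 7 of the 9, 51.8% rose. With this trend and that of GC content removed, Mt1, Mt2 and Car1 still rose, and 16.6% of genes did; Rhd, Tmem14c and Klf1 did not pass. Mt1, Mt2, Car1, Rhd, Klf1 and Tmem14c lay above the median of their length class, and Gata1, Car2 and Gfi1b below it.

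**Figure D4:**
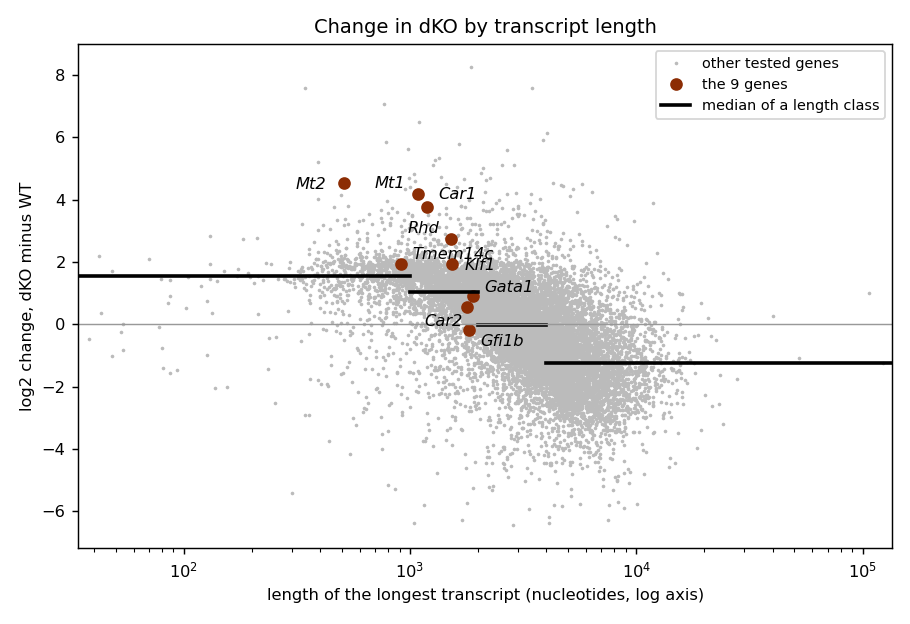
Log2 change of dKO over WT against the length of the longest transcript; grey points are all tested genes with a length, red points the 9 genes, and bars the median of each of 4 length classes. Mt2 (4.53), Mt1 (4.19) and Car1 (3.77) stand above the medians of 1.55 and 1.05 in their classes, and Gfi1b (-0.18) stands below.

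Other genes listed for the red cell programme, carbonic anhydrases and zinc handling were taken from 8 lists of 118 genes, of which 115 were in the table and 103 were tested. In dKO against WT 22 rose (21.4%, against 21.9% of all tested genes) and 22 fell (21.4%, against 26.5%), so the lists as a whole were called no more often than other genes. With the length trend removed 22 rose and 11 fell, where 16.6% of all genes rose and 12.6% fell. Without WT replicate 2 the counts were 13 and 14, and without WT replicate 3 they were 15 and 14.

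Against Tet2 KO 7 of the 103 rose (6.80%, against 15.5% of all genes) and 21 fell (20.4%, against 19.9%) in dKO, and 9 rose and 5 fell with the trend removed, where 9.2% of all genes rose and 6.33% fell. These counts moved with single libraries, to 15 and 26 without dKO replicate 1, 6 and 12 without dKO replicate 3, 8 and 13 when Tet2 KO replicate 3 was left out, 4 and 22 for its replicate 2, and 1 and 7 for the library labelled as its replicate 1. Against Traf6 KO 13 rose (12.6%, against 17.3% of all genes) and 20 fell (19.4%, against 20.7%) in dKO, and 16 rose and 11 fell with the trend removed, where 8.72% of all genes rose and 9.84% fell. They moved to 5 and 12 without dKO replicate 3, 1 and 12 without the library labelled Traf6 KO replicate 1, and 2 and 11 without Traf6 KO replicate 3. Without dKO replicate 2 the counts were 4 and 14 against Tet2 KO and 8 and 16 against Traf6 KO.

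None of the 103 passed in limma in either single knockout against WT or in the interaction, where 22 (Tet2 KO), 7 (Traf6 KO) and 19 (interaction) had an unadjusted p under 0.05. edgeR called 0 in each of these, and DESeq2 called 9 in Tet2 KO and 2 in Traf6 KO, and 1 for the interaction. Shares of all tested genes under the unadjusted rule or in DESeq2 are not given here, so these counts are a description only. In limma, the interaction had 1 higher and 16 lower without dKO replicate 1, and Tet2 KO against WT had 3 higher and 1 lower when only those groups were fitted, 2 higher without Tet2 KO replicate 2 and 1 higher with the trend removed.

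Of 17 genes of haem synthesis and mitochondrial transport, the pathway that TMEM14C serves, 6 rose and 3 fell in dKO against WT (median log2 change 0.26, against -0.09 over all tested genes). These are 35.3% and 17.6% of the list, against 21.9% and 26.5% of all tested genes, and 8 rose and 1 fell with the trend removed. Glrx5, needed for iron-sulfur clusters, changed by 2.07, and Alad, an enzyme of the porphyrin pathway, by 1.51; both calls held without any 1 library and with the length trend removed (2.21 and 0.86). Abcb10 (-1.50) and A230051G13Rik, a synonym of Iba57 (-1.01), were among those that fell, but neither call held with the trend removed (-0.54 and -0.06) or without dKO replicate 2 or 3 or WT replicate 2 or 3 (-1.52 to -0.88 for Abcb10, which also failed without WT replicate 1, and -0.95 to -0.90 for A230051G13Rik).

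Of 16 genes of the red cell membrane, the group to which Rhd belongs, 3 rose and 2 fell (median -0.07), that is 18.8% and 12.5% against 21.9% and 26.5% of all tested genes; 1 rose and 1 fell with the trend removed. Rhag, the partner of the Rh proteins, had a signal of 2561, 1320 and 327 in dKO, 717, 426 and 4524 in Tet2 KO, 304, 459 and 394 in Traf6 KO, and 168, 149.7 and 226 in WT, with a log2 change of dKO over WT of 2.53 (limma, adjusted p = 0.018). Its dKO libraries lay above its WT libraries, but the call ended without dKO replicate 1 or 2 or WT replicate 2 (1.87 to 2.40) and with the trend removed (2.13). Ank1 (2.75), a membrane skeleton adaptor, and Icam4 (1.57), a blood group adhesion protein, also rose. Ank1 (4.58 and past the threshold with the trend removed) lost its call without dKO replicate 1 or 3 or WT replicate 1 or 2 (2.23 to 2.84), and Icam4 without dKO replicate 3 or WT replicate 2 or 3 (0.93 to 1.60) and with the trend removed (0.35). The skeleton protein genes Epb4.1 (-2.44) and Epb4.2 (-3.61) fell, the second not without dKO replicate 3 or WT replicate 1 or 2 (-3.45 to -2.67) or with the trend removed (-2.99). In Tet2 KO against WT the median of these 16 was 1.27, with none called in limma.

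Of 16 erythroid transcription factors and partners, 2 rose and 7 fell in dKO against WT (median -0.55), that is 12.5% and 43.8% against 21.9% and 26.5% of all tested genes, and 3 rose and 2 fell with the trend removed. Zfpm1, the GATA1 cofactor FOG1, had 993, 604 and 516.5 in dKO and 3260, 5725 and 4120 in WT (log2 change -2.65), and Gata2, the factor that GATA1 replaces during erythroid differentiation, had 5539, 4729 and 3029 in dKO and 12155, 15893 and 12283 in WT (-1.63). Both remained lower with the trend removed (-1.58 and -0.78). Rcor1, a corepressor partner of GFI1B, fell (-1.62) but not with the trend removed (-0.37). Lmo2 (0.72) and Nfe2 (0.70) rose, and neither did so with the trend removed (-0.03 and 0.05) or without dKO replicate 2 or 3 or WT replicate 2 or 3 (0.48 to 0.76 for Lmo2 and 0.50 to 0.68 for Nfe2).

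Of 17 genes of erythropoietin signalling and iron, 4 rose and 6 fell (median -0.20), that is 23.5% and 35.3% against 21.9% and 26.5% of all tested genes; 3 rose and 3 fell with the trend removed. The ferritin heavy chain Fth1 (2.02), the ferritin light chain Ftl1 (1.88) and the hepcidin regulator Hfe (1.32) rose, and the kinase Jak2 (-2.46), its target Stat5b (-1.89) and the iron-responsive regulator Ireb2 (-1.81) fell. With the trend removed all of these still passed except Ftl1 (0.62). Of 14 other early erythroid progenitor genes, 4 rose and 1 fell (median 1.05), that is 28.6% and 7.14% against 21.9% and 26.5% of all tested genes; 4 rose and 2 fell with the trend removed. Tspo2, an erythroid membrane protein that binds cholesterol, had 310, 133 and 386 in dKO and 26.3, 21.7 and 16.4 in WT (log2 change 3.52; 3.82 with the trend removed), and Blvrb, the biliverdin reductase B of red cells, rose by 2.13 on the log2 scale (1.22 and not past the threshold with the trend removed). 1190007F08Rik, a synonym of the Vel blood group gene Smim1, rose by 2.69, but not without dKO replicate 3 or WT replicate 3 (2.30 to 2.55), and Muc13 fell by 0.73, but not without WT replicate 2 or 3 (-0.75 to -0.67).

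Of 4 globin genes tested, Hbb-b2 rose in dKO against WT, or 25.0% against 21.9% of all tested genes, and the other 3 did not pass. The signal of Hbb-b2 was 1282, 3502 and 1133 in dKO, 51.7, 77.5 and 127 in Tet2 KO, 437.5, 1814 and 306 in Traf6 KO, and 114, 70.8 and 58.7 in WT (log2 change 4.44). It had no transcript length here, so it has no value with the trend removed. It is nearly identical to its neighbour Hbb-b1, so the split of reads between them is uncertain. Hbb-b1 had 22.5, 417 and 229 in dKO and 200.1, 38.8 and 81.8 in WT. Of 8 other carbonic anhydrases Car3 (1.53) and Car9 (1.05) rose, or 25.0% against 21.9% of all tested genes, and none fell; neither passed with the trend removed (0.72 and 0.55), and Car9 did not pass without WT replicate 1 (0.999). Of 11 other metallothionein and zinc genes, none rose and 3 zinc importers fell, or 27.3% against 26.5% of all tested genes. Slc39a14 changed by -3.11 and Slc39a10 by -1.98, also with the trend removed (-1.90 and -0.97). Slc39a6 changed by -0.99 and did not pass with the trend removed (-0.42) or without dKO replicate 2 or 3 or WT replicate 2 or 3 (-1.03 to -0.56). With the trend removed 3 of the 11 rose and 2 fell.

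The genes most like each of the 9 were taken from 10381 genes by the mean absolute difference in log2 signal, centred on each gene's mean, over the 12 libraries. For Car1 they were Tspo2 (0.42), Spon2 (0.49) and Slc38a5 (0.52), and for Rhd they were Slc38a5 (0.23), Sphk1 (0.38) and Hpn (0.41). For Klf1 they were Cited4 (0.34), Fam132a (0.41) and Ank1 (0.41), and for Gata1 they included Ccne1 (0.20) and Rrm2 (0.26). For Car2 they were Fundc1 (0.16), Selenbp1 (0.17) and Cd82 (0.17), for Tmem14c Exosc8 (0.13), Guk1 (0.14) and Hspe1 (0.14), and for Gfi1b Rbm4b (0.33), Fadd (0.36) and Tra2a (0.36).

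The metallothioneins were close to each other (0.38). For Mt1 the nearest outside the 9 were Ccl9 (0.42), Slc4a8 (0.43) and the granule protease Prtn3 (0.45), and for Mt2 they were the monocyte antigen Ly6c2 (0.57), the Fc receptor Fcgr3 (0.66) and neutrophil elastase Elane (0.68). Among the 9, Rhd and Klf1 differed by 0.43 and Car1 and Mt2 by 0.44. These distances describe 12 libraries of 4 genotypes and have no test.

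Markers of other cell types differed in level between the genotypes. The summed signal of 8 mature myeloid genes was 12776 to 49355 in dKO, 10013 to 13572 in Tet2 KO, 9473 to 17355 in Traf6 KO and 9815 to 17390 in WT, and that of 10 mast cell and basophil genes was 6606 to 10921 in dKO, 1525 to 2096 in Tet2 KO, 3772 to 9963 in Traf6 KO and 1402 to 2354 in WT. The 8 mature lymphoid genes summed to 8002 to 78411 in dKO, 5534 to 17803 in Tet2 KO, 7662 to 12268 in Traf6 KO and 4939 to 5882 in WT, with Cd3e at 0 in all 12 libraries. The 7 late erythroid genes summed to 661 to 2896 in dKO, 678 to 6855 in Tet2 KO, 426 to 1370 in Traf6 KO and 327 to 630.1 in WT. Kit, 1 of the genes that define the gate, was 4099 to 11935 in dKO, 24029 to 51517 in Tet2 KO, 32355 to 56213 in Traf6 KO and 44484 to 47837 in WT. Ly6a, the gene of Sca-1, was 1968, 2446 and 13218 in dKO and 1990 to 2339 in WT. Of 11 gate and stem cell genes, 1 rose and 6 fell in dKO against WT in limma. Of all tested genes, 21.9% rose and 26.5% fell. The 11 genes summed to 105123 to 117246 in dKO and 132240 to 149604 in WT. The part of these differences in the values of the 9 genes was not tested.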

How the data were processed

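RNA of LSK cells was measured in 12 libraries. Per the labels' protocols, RNA was amplified with a SMART-Seq v4 low-input kit and sequenced on a HiSeq 4000; STAR, featureCounts, bcl2fastq and DESeq2 appear without versions in the submitters' processing notes, beside the builds GRCm38 and mm10. The authors deposited 1 table of 37187 genes in which each value is a normalised signal, made from a gene's reads and a scaling factor of the library. Within a tolerance of 1e-06, 100% of values were whole multiples of the value of 1 read (0.518 to 1.79 units).

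From that table, log2(signal + 1) of the 14045 genes with a signal of at least 10 in at least 3 libraries was fitted with limma 3.58.1 (R 4.3.3; trend and robust variance), 4 groups over all 12 libraries, with Benjamini-Hochberg adjustment over all genes and a threshold of 0.05. The 3 knockouts were each set against WT, dKO was set against Tet2 KO and Traf6 KO, and the interaction was fitted. Positions and the longest transcripts came from GENCODE M21 on GRCm38 (30478 genes matched, 2091 of them by a synonym), and the length and GC trend was removed by loess (span 0.3) over 13676 genes. Alternatives were a pseudocount of 5, no filter, equal library totals, that trend removed, a replicate block, a fit of the compared groups alone, leaving out each library, leaving out both libraries labelled Tet2 KO replicate 1 and Traf6 KO replicate 1, edgeR 4.0.16 and DESeq2 1.42.0 on the recovered reads; the trend removed together with leaving out Tet2 KO replicate 3 or dKO replicate 3 was added after seeing the data. The limma fit was run on simulated counts with the same spread setting for every gene, no length trend and no outlying library. That run therefore does not show how the fit behaves under those features of the data. Replicates of a group differed by more than sampling noise.

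The 9 genes and the lists were chosen with earlier results of these data known. The text names the 9 genes and, per list, up to 3 genes past the threshold in each direction in dKO against WT, by smallest p. Some of these genes are not reported here. The most similar genes are the 3 nearest with a mean signal of at least 50.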

Additional observations from a re-analysis of the deposited data

Results flagged for a closer look

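Rhd differed in direction between the backgrounds in which Traf6 was lost. Loss of Traf6 together with loss of Tet2 (dKO against Tet2 KO) gave a mean log2 difference of -0.50, while loss of Traf6 alone (Traf6 KO against WT) gave 0.79, a difference of -1.29 between them. Both comparisons also differed in Xist, so sex and genotype cannot be told apart in them. The interaction was tested and did not pass (limma, adjusted p = 0.406; between 0.151 and 0.797 over the alternatives). The value for dKO against Tet2 KO rests on Tet2 KO replicate 3, at 4469 against 769 and 420.1 in replicates 1 and 2; over the fits that leave out 1 library it ran between -1.22 and 0.49, and it was above 0 without that library.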

How the results depend on the processing

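In dKO against WT the rise of Car1, Mt1 and Mt2 passed under all 24 alternatives, that of Rhd under 22, of Tmem14c under 21 and of Klf1 under 11. The count of 6 became 3 with the length and GC trend removed, also with a replicate block (3), and 5 to 7 on leaving out 1 library. The count of 0 for Tet2 KO against WT became 2 when only the compared groups were fitted, 1 with the trend removed and dKO replicate 3 left out, 5 in DESeq2, and 0 to 1 on leaving out 1 library; Traf6 KO against WT and the interaction stayed at 0. The count of 2 for dKO against Tet2 KO became 0 with the trend removed (alone, with a replicate block or without dKO replicate 3), 0 with only the compared groups, 0 without the libraries labelled Tet2 KO replicate 1 and Traf6 KO replicate 1, 1 with the trend removed and Tet2 KO replicate 3 left out, and 0 to 4 on leaving out 1 library. The count of 5 for dKO against Traf6 KO became 3 with no filter, equal totals, only the compared groups or edgeR, 0 with the trend removed (alone, with a replicate block or without dKO replicate 3), 0 without both labelled libraries, 1 with the trend removed and Tet2 KO replicate 3 left out, and 0 to 6 on leaving out 1 library. The cause of these changes was not tested.

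Some log2 changes of genes that did not pass changed sign. With the trend removed, with or without a replicate block, these were Car2 in dKO against WT (-0.17), Car1 (-0.34) and Gata1 (-0.25) in dKO against Tet2 KO, Car2 (-0.24), Gata1 (-0.16) and Gfi1b (-0.040) in dKO against Traf6 KO, and Mt1 (-0.51) and Gfi1b (-0.060) in the interaction; the called genes Lmo2 in dKO against WT (-0.030) and Nfe2 in dKO against Traf6 KO (-0.0068) did so too. With the trend removed and Tet2 KO replicate 3 left out, Gata1 (-0.094), Tmem14c (-0.0078) and Gfi1b (-0.40) turned in Tet2 KO against WT, as did Car2 in dKO against WT (-0.17) and Car2 (-0.24), Gata1 (-0.16), Gfi1b (-0.040) and Nfe2 (-0.0068) in dKO against Traf6 KO, and Lmo2 (-0.030). With the trend removed and dKO replicate 3 left out, they were Car2 in dKO against WT (-0.14) and against Traf6 KO (-0.21), Car1 in dKO against Tet2 KO (-0.060), Gfi1b in dKO against Traf6 KO (-0.14), Mt1 (-0.41) and Gfi1b (-0.16) in the interaction, Abcb10 in dKO against WT (0.025) and Gata2 in dKO against Tet2 KO (0.027). In edgeR they were Car1 (-0.10) and Gata1 (-0.29) in dKO against Tet2 KO and Mt1 (-0.19) and Gfi1b (-0.024) in the interaction, and in DESeq2 Car1 (-0.021) and Gata1 (-0.21) in dKO against Tet2 KO and Mt1 (-0.077) in the interaction. With equal totals Gata1 turned in dKO against Tet2 KO (-0.089). Without both labelled libraries Car2 in Traf6 KO against WT (-0.014), Gata1 in dKO against Tet2 KO (-0.13), and Mt1 (-0.38) and Gfi1b (-0.41) in the interaction turned.

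On leaving out 1 library the log2 change ran between -0.32 and 0.50 for Gfi1b in Tet2 KO against WT and between -0.014 and 0.19 for Car2 in Traf6 KO against WT. In dKO against Tet2 KO it ran between -0.28 and 0.31 for Car2, -1.22 and 0.49 for Rhd, -1.02 and 0.58 for Klf1, -0.27 and 0.90 for Gata1, and -0.68 and 0.14 for Gfi1b. In the interaction it ran between -1.55 and 0.083 for Car1, -0.38 and 0.21 for Car2, -1.52 and 0.10 for Klf1, -0.76 and 0.41 for Gata1, -0.026 and 1.197 for Mt1, -1.25 and 0.48 for Mt2, and -0.060 and 0.94 for Gfi1b.

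Libraries with the same replicate number deviated together no more often than others. Their r ran between -0.18 and 0.19 and was over 0.1 in 3 of 18 pairs, against 6 of 36 pairs of other numbers. With groups of 3 libraries this check cannot decide whether the numbers pair the libraries. With a replicate block the counts of called genes were 6, 2 and 5 in dKO against WT, Tet2 KO and Traf6 KO, and 0 in the other comparisons. Among the 9 genes the groups of 3 libraries limit what can be called: the standard errors run between 0.29 for Car2 and 0.83 for Mt2, and the fewest reads behind a normalised signal are those of Mt2 in WT.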
